A study of Mus musculus with 24 samples.

Results

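The comparison set Smad2 knockout (KO) mouse embryonic stem cells against wild-type (WT) cells grown without inhibitor, using chromatin accessibility measured by ATAC-seq. It took 12 of the study's 24 libraries: 4 of WT, 4 of the line Smad2_KO1 and 4 of the line Smad2_KO2, all labelled Ctrl. Of the 299780 genomic intervals in the deposited table for these libraries, 282089 had a value of 10 or more in at least 4 libraries and were tested. An interval was called when it differed from WT in both KO lines, in the same direction, with a limma adjusted p under 0.05 in each. "Higher" and "lower" below refer to the KO lines against WT after each library was centred on its median log2 ratio to the mean of the 12. Values are the deposited normalized values, which are reads in the interval scaled by 1 factor per library, in the order of replicates 1 to 4. Ratios of means use these values without centring.

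All 12 libraries came from E14, a mouse embryonic stem cell line, cultured on gelatin-coated plates in medium with serum and LIF, the cytokine leukemia inhibitory factor. The other 12 libraries of the study came from the same 3 lines treated with 200 nM of the mTOR inhibitor INK128 for 12 hours. Each library was made from 50000 live cells and sequenced in paired-end mode. How Smad2 was disrupted and whether each KO line is a clone are not given in the sources used here. Nothing in the labels says that the 4 libraries of a line came from separate cultures, so the p-values measure the spread between these libraries, which may be technical. The fit pooled this spread over the 3 lines, although WT libraries differed more among themselves than those of either KO line. Both KO lines were compared with the same 4 WT libraries, so calls in both lines are not independent of each other.

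Smad2 is a receptor-activated Smad: Nodal, activin and TGF-beta bind serine/threonine kinase receptors, which phosphorylate Smad2 and Smad3, and these join Smad4 and act in the nucleus with DNA-binding partners such as Foxh1. In embryonic stem cells the pathway is known for switching on its own inhibitors, among them Lefty1, Lefty2 and Smad7, and for its part in leaving the pluripotent state towards mesendoderm. ATAC-seq uses the Tn5 transposase to insert sequencing adapters into open chromatin, so the reads in an interval rise with how open it is and with how many of the cells have it open. In bulk samples these cannot be told apart.

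Promoters of 4 genes are shown first, since each carried a called interval and they show what the sequence at such gene starts looked like. Xlr3a and Fkbp6 had an interval that was higher in both lines, and Sprr1a and Ifit1 had one that was lower. Each is the run of 250 bases before the RefSeq gene start in assembly GRCm38.p6, the assembly that mm10 names, written 5′ to 3′ along the gene's strand. The called interval lay wholly within these bases in Fkbp6 and Sprr1a, and covered 142 of them in Xlr3a and 164 in Ifit1. The 4 were picked after their values and sequences were seen. Capitals mark matches, on either strand, to 9 motifs. Smad proteins are known to bind CAGAC and the palindrome GTCTAGAC. The sequence TGTNNATT is bound by Foxh1, the partner of Smad2. TGANTCA is the site of the stress- and growth-responsive AP-1 factors, and ATTTGCAT the octamer of POU factors such as Oct4. CACGTG is the E-box of basic helix-loop-helix factors. GGGCGGG is the GC box of Sp1 and its relatives, common in CpG-rich promoters, and TATAAA the TATA box. The last motif was the interferon response element, a repeat of GAAA with a spacer.
Xlr3a, chrX:73097096-73097345, minus strand: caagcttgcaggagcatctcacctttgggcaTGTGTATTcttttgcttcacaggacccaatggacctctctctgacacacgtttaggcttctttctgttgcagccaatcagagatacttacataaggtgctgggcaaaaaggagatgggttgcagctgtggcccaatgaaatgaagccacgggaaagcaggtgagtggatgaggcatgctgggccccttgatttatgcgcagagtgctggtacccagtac
Fkbp6, chr5:135349914-135350163, minus strand: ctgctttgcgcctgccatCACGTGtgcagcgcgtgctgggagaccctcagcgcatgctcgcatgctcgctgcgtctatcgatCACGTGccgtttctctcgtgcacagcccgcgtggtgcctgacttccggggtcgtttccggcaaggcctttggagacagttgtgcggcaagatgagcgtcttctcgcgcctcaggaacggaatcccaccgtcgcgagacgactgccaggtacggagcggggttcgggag
Sprr1a, chr3:92485882-92486131, minus strand: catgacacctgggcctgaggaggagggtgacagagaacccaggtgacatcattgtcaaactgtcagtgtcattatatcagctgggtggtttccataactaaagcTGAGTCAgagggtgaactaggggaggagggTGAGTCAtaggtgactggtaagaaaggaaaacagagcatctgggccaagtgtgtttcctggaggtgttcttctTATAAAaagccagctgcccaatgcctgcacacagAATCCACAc
Ifit1, chr19:34640639-34640888, plus strand: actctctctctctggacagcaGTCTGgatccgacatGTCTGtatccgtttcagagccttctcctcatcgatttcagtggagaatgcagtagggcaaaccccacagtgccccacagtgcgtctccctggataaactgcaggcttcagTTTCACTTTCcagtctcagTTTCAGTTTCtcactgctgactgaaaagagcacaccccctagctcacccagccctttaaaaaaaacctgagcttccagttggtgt

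The Xlr3a promoter held 1 match to TGTNNATT and the Fkbp6 promoter 2 to CACGTG. Sprr1a held 2 matches to TGANTCA, 1 to TGTNNATT and 1 to TATAAA, and Ifit1 held 2 to CAGAC and 2 to the interferon response element. Hits of different motifs may overlap. Of all 21238 promoters, 40.8% held CAGAC, 9.56% TGTNNATT, 6.14% TGANTCA, 6.63% CACGTG, 31.1% GGGCGGG, 11.6% TATAAA, 2.95% the interferon response element, 1.58% ATTTGCAT and 0.184% GTCTAGAC. An interval covered at least 100 bases of 7860 of these promoters, and in 62 that interval was called higher and in 379 lower. GGGCGGG was in 48.4% of the 7860, in 17.7% of the 62 and in 36.1% of the 379. TGANTCA was in 4.21%, 3.23% and 10% of the same sets, CAGAC in 41.6%, 46.8% and 45.6%, and TGTNNATT in 5.39%, 8.06% and 6.33%. CACGTG was in 8.82%, 9.68% and 5.54%, and TATAAA in 4.89%, 4.84% and 8.44%. ATTTGCAT was in 1.68%, 3.23% and 2.9%, and the interferon response element in 1.93%, 1.61% and 3.69%. GTCTAGAC was in 0.165% of the 7860 and in 0 of the 62 and 0 of the 379. Of promoters with under 50% G and C, 1.54% had an interval called higher and 8.77% lower, against 0.32% and 3.36% of those with 60% or more. These shares are descriptions of letters in a window, and no test was run on them.

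Fkbp6 encodes an immunophilin of the male germ line. At its promoter interval, chr5:135349943-135350143, the WT values were 24.6, 28.7, 16.4 and 27. In Smad2_KO1 they were 66.7, 46.3, 63.7 and 68.2, and in Smad2_KO2 53.1, 67.3, 76.5 and 54.3. Every KO value lay above every WT value. In the gene table the outer end of Fkbp6 lies more than 1000 bases from this interval, so by position it was counted as gene body and not as a gene end. The log2 change was 1.24 in Smad2_KO1 and 1.30 in Smad2_KO2 (standard error 0.17, n = 4 a line), with limma adjusted p of 3.64e-06 and 1.64e-06.

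Reads recovered within the deposited intervals (in M per library) were 13.5 ± 1.53 for WT, 14.2 ± 2.12 for Smad2_KO1 and 13.8 ± 1.21 for Smad2_KO2 (SD, n = 4 each). They ranged from 11.8 to 16.5. Reads outside the intervals are not known, so these counts are not the sequencing depth. The leading principal component held 27.9% of the variance and separated the WT libraries (86.7 to 190) from the 8 KO libraries (−84.0 to −49.1). The next component, with 10.3%, separated WT replicates 1 and 2 (124.6 and 73.3) from WT replicates 3 and 4 (−119.6 and −41.0). WT replicates 3 and 4 both exceeded replicates 1 and 2 at 15.3% of all tested intervals, at 39.9% of those called lower and at 79.9% of those called lower by at least 1 on the log2 scale, against 12.1% of those called higher. The main counts are therefore given with and without these 2 libraries. Among stem cell markers, the strongest intervals of Sox2, Nanog, Esrrb, Zfp42 and Tfcp2l1 lay at or above the 97 percentile of all tested intervals and that of Pou5f1 at the 73.3 percentile, and none of these 6 was called. Genes of other cell types were accessible too. Summed over 5 fibroblast genes (Col1a1, Col1a2, Thy1, Twist1, Prrx1), the strongest intervals reached 539 to 595 in WT, 465 to 519 in Smad2_KO1 and 469 to 508 in Smad2_KO2, with 1 of the 5, Thy1, called lower. The sums over 4 trophoblast genes were 602 to 657 in WT, 625 to 714 in Smad2_KO1 and 585 to 687 in Smad2_KO2, with 1 of the 4, Cdx2, called lower (log2 change −1.03 and −0.78). Over 4 primitive endoderm genes they were 448 to 592, 456 to 582 and 514 to 573, and over 3 neural genes 458 to 543, 412 to 501 and 436 to 482, with none called. No gene of these lists was at 0. The part of other cells in the results was not tested.

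Smad2 itself, with 1000 bases on either side, held 7 tested intervals, and none was called in both lines. At chr18:76248614-76248814 in the gene body the WT values were 4.27, 8.96, 4.38 and 5.39. The values were 15.4, 17.5, 14.1 and 13.9 in Smad2_KO1 and 13, 14.6, 8.5 and 9.06 in Smad2_KO2. The log2 change was 1.23 (limma adjusted p = 0.00846) in Smad2_KO1 and 0.82 (0.0896) in Smad2_KO2. The edited position is not given in the sources used here, so these intervals do not check the knockout.

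With centring and all 12 libraries, accessibility was lower than WT at more intervals than it was higher. Both lines were called at 21231 intervals, 7.53% of those tested, with 7926 higher (2.81%) and 13305 lower (4.72%). Smad2_KO1 alone against WT gave 33350 calls (11.8%) and Smad2_KO2 gave 31463 (11.2%). No interval was called in opposite directions in the 2 lines. Between Smad2_KO2 and Smad2_KO1, limma called 0 of the 282089 intervals (0%), as did edgeR and DESeq2 on the recovered reads, and 9378 (3.32%) had an unadjusted p under 0.05. At intervals called higher, the median level rose from 17.8 in WT to 33.4 in KO, with a median log2 change of 0.81. At intervals called lower it fell from 72.9 to 45.2, with a median log2 change of −0.70. The 8 KO values lay wholly outside the range of the 4 WT values at 13308 of the 21231. Over all tested intervals the 8 KO values lay above the WT values at 4.16% and below them at 3.32%. In the authors' deposited table, which compares KO with WT, 36574 intervals had a false discovery rate under 0.05, and 20986 of the 21231 were among them with the same sign.

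The balance between directions depended on the WT libraries and on centring. Without WT replicates 3 and 4, 10098 intervals were called, 5201 higher and 4897 lower, and 8106 of the original 21231 were among them (3717 of those higher, 4389 of those lower). Without WT replicates 1 and 2, 21534 were called, of which 34.6% were higher. Leaving out Smad2_KO1 replicate 1 or Smad2_KO2 replicate 2 left 5232 or 5254 higher calls. With no centring, 55.2% of the calls were higher, against 37.3% with it, and with centring along the mean level (loess) 43.9%.

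Gene ends, meaning intervals within 1000 bases of either end of a protein-coding gene, held few of the higher calls. They made up 22713 of the tested intervals, of which 262 (1.15%) were higher and 1045 (4.6%) lower. Gene bodies, with 135971 intervals, had 2.78% higher and 4.25% lower. Intergenic intervals within 50 kb of a gene (74338) had 3.29% higher and 4.91% lower, and those farther away (49067) had 2.93% higher and 5.76% lower. The median log2 difference was −0.11 at gene ends, 0.02 in gene bodies and near intergenic intervals and 0.04 far from genes, beside 0.01 over all tested intervals.

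**Figure D1:**
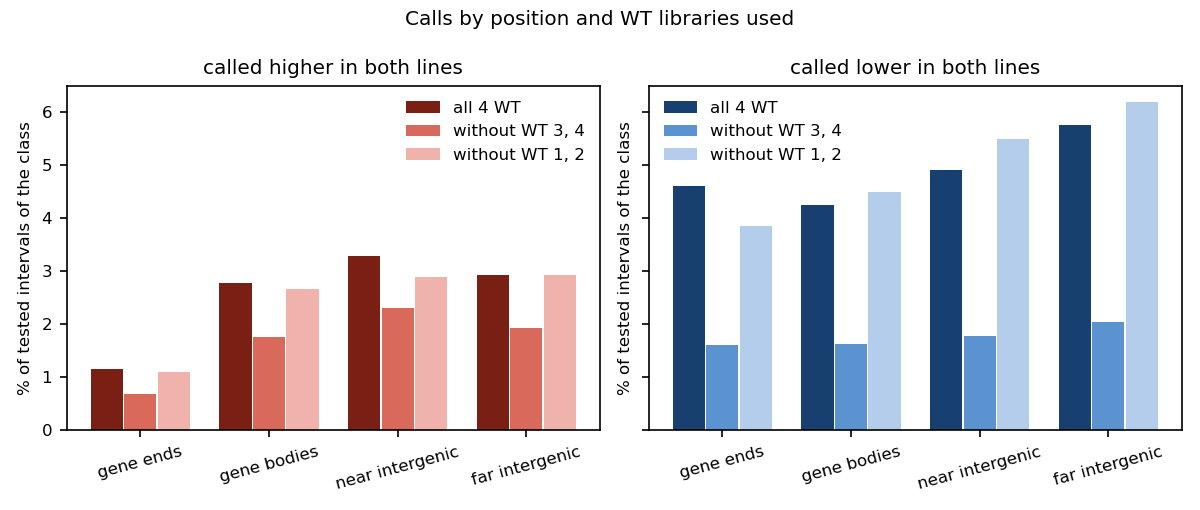
Percent of tested intervals called higher or lower in both KO lines (y axis) by position relative to protein-coding genes (x axis), as bars for all 12 libraries, without WT replicates 3 and 4 and without WT replicates 1 and 2. Higher calls at gene ends were 1.15% with all libraries and 0.678% without WT replicates 3 and 4, below the other positions each time, and lower calls at gene ends were 4.6% and 1.61%.

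Where strand was known, gene starts and 3′ ends differed in their calls. At 11475 intervals at gene starts, with a median WT level of 180, 0.802% were higher and 5.13% lower. At 6698 intervals at 3′ ends, with a median level of 20.7, 1.64% were higher and 3.19% lower. The order of positions for lower calls changed without WT replicates 3 and 4: 1.61% of gene ends, 1.63% of gene bodies, 1.78% of near and 2.03% of far intergenic intervals were then lower. Leaving out WT replicate 4 alone left 542 lower calls at gene ends, and leaving out Smad2_KO2 replicate 1 or replicate 2 left 646 or 641. The higher calls at gene ends numbered 174 without Smad2_KO1 replicate 3 and 174 without Smad2_KO2 replicate 1. In gene bodies they numbered 2517 without Smad2_KO1 replicate 1 and 2472 without Smad2_KO2 replicate 2. Near genes they numbered 1593 without Smad2_KO1 replicate 1, and far from genes 946, 922 and 929 without Smad2_KO1 replicate 1, Smad2_KO2 replicate 1 and Smad2_KO2 replicate 2. Scaling moved the gene ends as well, to 372 higher and 478 lower with centring along the mean level (median log2 difference −0.01) and to 383 and 495 with no centring.

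Level and position overlapped, since gene ends were the most accessible class. Among intervals with a mean value of 100 or more, 0.387% of gene ends were higher, against 1.89% of gene bodies, 2.11% of near and 2.34% of far intergenic intervals. In the same band 5.56% of gene ends were lower, against 14.3%, 14.6% and 19.9% of the other classes. With all 12 libraries, strong intervals far from genes thus had the highest share of lower calls of these 4 classes, and strong gene ends the lowest. WT replicates 3 and 4 both exceeded replicates 1 and 2 at 44.3% of lower calls far from genes and at 22.6% of those at gene ends. Whether the contrast within a band holds without these 2 libraries was not tested. Under a mean of 20, lower calls were 1.04% of gene ends, 1.52% of gene bodies, 1.92% of near and 2.63% of far intergenic intervals. Over all positions, the tenth of intervals with the lowest means had 1.12% higher and 0.723% lower, and the tenth with the highest means 1.33% higher and 12.2% lower.

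**Figure D2:**
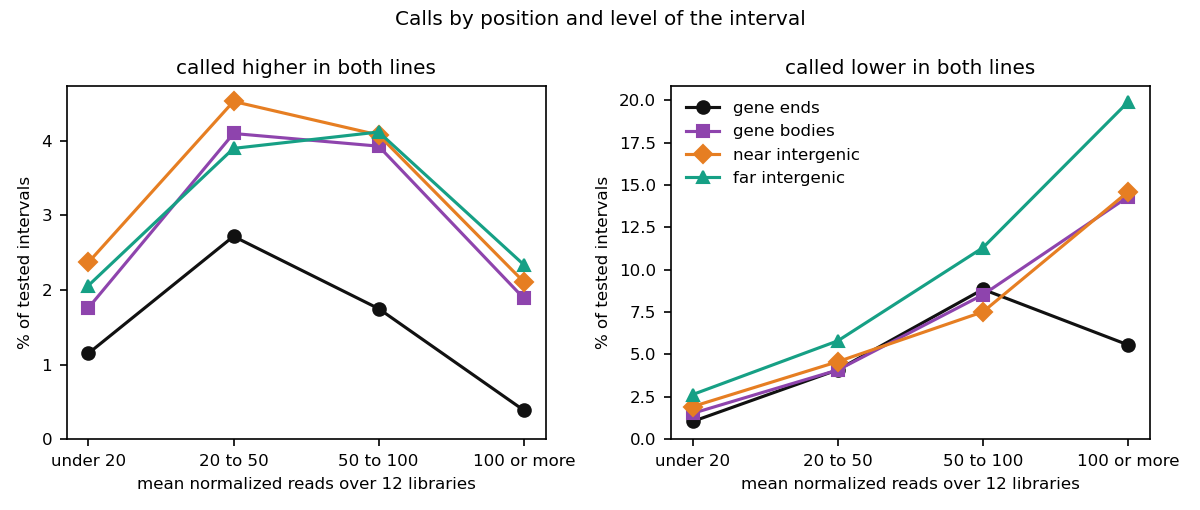
Percent of tested intervals called higher and lower in both KO lines (y axis) within 4 bands of mean value (x axis), with 1 line for each position class. In the band of 100 or more, lower calls were 5.56% at gene ends and 19.9% far from genes, and higher calls were 0.387% and 2.34%. All shares are with all 12 libraries and after median centring, which leaves in a trend of the log2 difference with level.

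The share of each library's summed signal that lay at gene ends did not differ beyond the spread between libraries. WT libraries had 23.5 ± 1.4% of their signal there, those of Smad2_KO1 22.7 ± 1.21% and those of Smad2_KO2 22.9 ± 0.49% (SD, n = 4). Two-sided exact permutation tests gave p = 0.486 and 0.457 (both 0.486 after Benjamini-Hochberg adjustment over the 2 tests), where the smallest p that 70 splits allow is 0.0286.

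The largest higher intervals lay mostly in gene bodies. The strongest rise at a mean of at least 50 was in Syt16, a member of the synaptotagmin family of membrane-trafficking proteins, at chr12:74126039-74126239. Its values in WT were 45.9, 48.4, 44.9 and 50.7. They were 145.3, 143.9, 168.7 and 137.5 in Smad2_KO1 and 154.3, 150.2, 155.1 and 143.9 in Smad2_KO2. The WT libraries lay close together and every KO library was well above them. The log2 change was 1.55 and 1.59 (standard error 0.12, limma adjusted p = 3.33e-12 and 1.14e-12). A neighbouring Syt16 interval, at chr12:74128297-74128497, rose from 28.8, 30.4, 29.6 and 29.1 in WT to between 55.5 and 101.9 in the 8 KO libraries.

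Of the 10 intervals with the largest rise, 7 lay in gene bodies, 2 far from genes and 1 at a gene start. Fermt2 encodes kindlin-2, an adaptor of integrins. At chr14:45495915-45496115 in Fermt2 the WT values were 18.2, 27.8, 26.3 and 28 and the KO values ran from 50.8 to 84.2, a log2 change of 1.37 and 1.35. Tube1, which encodes epsilon-tubulin, went from 13.9, 19.7, 15.3 and 17.2 in WT to between 41.2 and 61 in KO at chr10:39142307-39142507. Tsc22d1, a regulator known to be induced by TGF-beta, was the nearest gene, more than 50 kb away, of an interval at chr14:76276833-76277033. That interval rose from 21.4, 24.2, 21.9 and 14 in WT to between 47.3 and 60.9 in KO (log2 change 1.40 and 1.34). The others were nearest to Gm7247, 1700012B07Rik, Xlr3a, Slc5a4a and Dsel, with ratios of mean values from 2.74 to 3.03. All 10 stayed called without WT replicates 3 and 4.

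The largest falls were larger in size and rested on a wider spread in WT. The 10 had ratios of WT to KO mean values from 4.37 to 9.49, and at each of them WT replicates 3 and 4 were above replicates 1 and 2. Sprr1a encodes a precursor of the cornified envelope of epithelia. At chr3:92485927-92486127, over the promoter shown above with its AP-1 and TATA box matches, the WT values were 25.6, 27.8, 87.6 and 60.4. The values were 10.3, 10.3, 6.56 and 8.09 in Smad2_KO1 and 9.02, 9.1, 6.37 and 6.04 in Smad2_KO2. No KO value came near the lowest WT value. The log2 change was −2.30 and −2.47 (standard error 0.30, limma adjusted p = 9.52e-07 and 2.86e-07).

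Twist2, a transcription factor of mesenchyme, had a gene-body interval at chr1:91823540-91823740 with WT values of 35.2, 13.4, 70.1 and 93.8 and KO values from 5.31 to 11. The WT values spanned a wide range, yet the lowest of them was above every KO value. Near Kcna4, a potassium channel gene, WT values of 53.4, 29.6, 106.2 and 126.2 faced KO values from 6.37 to 23.1 at chr2:108032768-108032968. Lrrc8a, a subunit of a volume-regulated anion channel, and Erp44, a chaperone of the endoplasmic reticulum, each held a gene-body interval lower by 2.06 to 2.13 on the log2 scale. The remaining falls were nearest to Spink5, Pkia, Actbl2, Ccdc59 and Gm41291. Of the 10, 9 stayed called without WT replicates 3 and 4, and the Gm41291 interval did not.

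**Figure D3:**
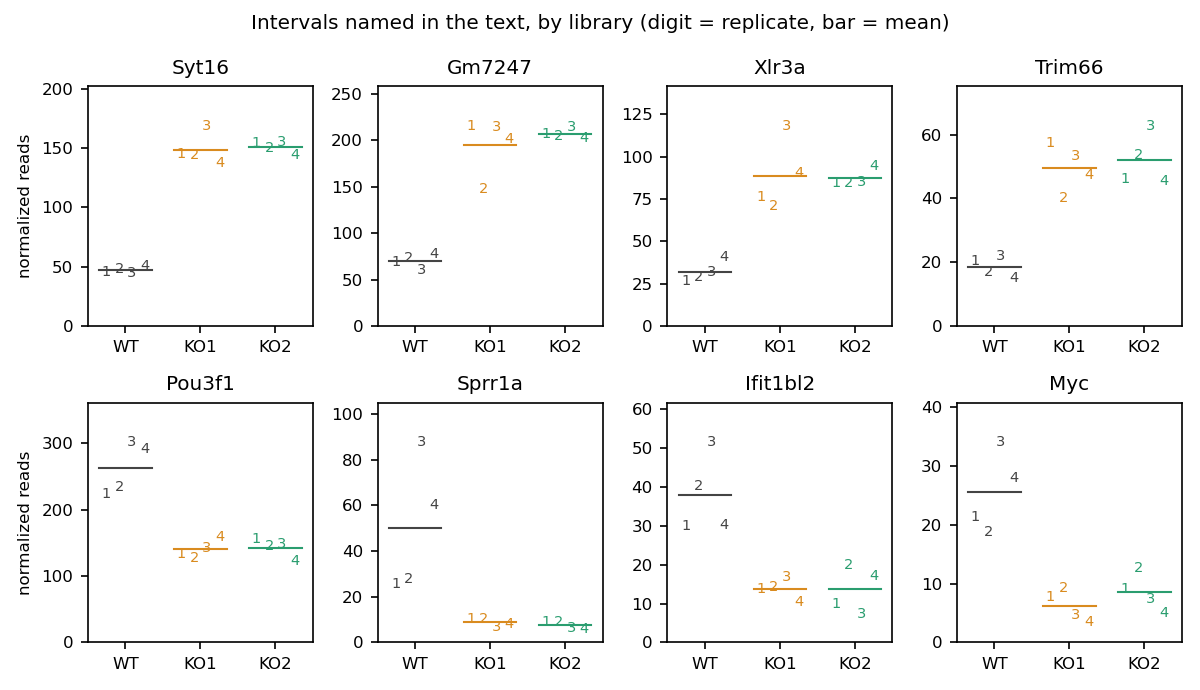
Deposited normalized value (y axis, linear from 0) in each library of WT, Smad2_KO1 and Smad2_KO2 (x axis) at 8 intervals, with a digit for each replicate and a bar for the group mean. Syt16 reads 44.9 to 50.7 in WT and 137.5 to 168.7 in KO, and at Sprr1a WT replicates 3 and 4 (87.6 and 60.4) stand above replicates 1 and 2.

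At gene ends, the 8 largest rises kept their calls without WT replicates 3 and 4, and 4 of the 8 largest falls did. Eln encodes elastin, and its end interval at chr5:134701927-134702127 had WT values of 8.54, 10.8, 9.86 and 14. The values were 35.9, 31.9, 37.5 and 31.2 in Smad2_KO1 and 28.1, 30, 28.7 and 34.2 in Smad2_KO2, a log2 change of 1.51 and 1.36 (limma adjusted p = 3.17e-06 and 1.61e-05). All 8 KO libraries were above the highest WT library. At the start of Xlr3a the WT values were 26.7, 28.7, 31.8 and 41 and the KO values 70.9 to 118.1. Xlr3a belongs to a family of near-identical X-linked copies, so reads may be split or shared among them and its value is uncertain. Other gene ends that rose were those of Camk1g, a calcium/calmodulin-dependent kinase, Trim66, Scp2d1, Slc22a16, Tbata and 9530077C05Rik.

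Among falls at gene ends, Neu4, a sialidase gene, went from 27.8, 19.7, 64.6 and 61.5 in WT to between 2.31 and 9.06 in KO at chr1:94028813-94029013. Pir, which encodes the nuclear protein pirin, went from 24.6, 31.4, 46 and 34.5 to between 5.01 and 18.5 at chrX:164373125-164373325. The interval chr19:34640725-34640925 lay at the start of Ifit1bl2 and over the promoter of its interferon-induced neighbour Ifit1. It had WT values of 29.9, 40.3, 51.5 and 30.2 and KO values from 7.44 to 20. Its log2 change was −1.46 and −1.53 (limma adjusted p = 0.0001 and 5.02e-05). The promoter shown above, with 2 matches to the interferon response element, is that of Ifit1. Neu4, Pir, Sprr1a and Ifit1bl2 stayed called without WT replicates 3 and 4. Oasl2, another interferon-induced gene, Cryab, a small heat shock protein gene, Hepacam2 and the proto-oncogene Myc did not. At the Myc end interval, chr15:61991027-61991227, the WT values were 21.4, 18.8, 34 and 28 and the KO values 3.47 to 12.7.

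Calls were spread over many genes. Of 19435 protein-coding genes that were the nearest gene, within 50 kb, of a tested interval, 8444 had a call in both lines: 2481 had higher calls only, 4223 lower calls only and 1740 both kinds. At least 5 higher calls fell to 110 genes and at least 5 lower calls to 289. The gene with the most higher calls was Zfp951, a zinc finger gene on chromosome 5 at 104802246 to 104860157. Of its 30 tested intervals 17 were higher and 29 had a log2 difference above 0 (range −0.24 to 2.02), and the median level was 8.07 in WT and 18.4 in KO.

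Within Zfp951 the interval chr5:104827807-104828007 had WT values of 6.41, 13.4, 12.1 and 7.55. The values were 46.2, 63.7, 36.5 and 39.3 in Smad2_KO1 and 53.1, 42.8, 37.2 and 36.2 in Smad2_KO2. Its log2 changes were 2.07 and 1.98 (standard error 0.22, limma adjusted p = 1.54e-08 and 3.52e-08). The fit without WT replicates 3 and 4 called 15 of the 30 higher. The neighbouring gene Gm20385 had 8 of 17 higher (5 without these libraries), and all 17 differences were above 0. Zinc finger clusters hold closely related copies, so how reads were placed there is uncertain.

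Other genes with many higher calls ranged in length from 41 kb (Cand1) to 900 kb (Etl4). St6galnac3, a sialyltransferase gene, had 12 of 108 higher and 2 lower, and Cand1, which encodes a regulator of cullin ubiquitin ligases, had 10 of 39. Near Cand1, chr10:119263273-119263473 rose from 24.6, 29.6, 27.4 and 31.3 in WT to between 52.3 and 90.5 in KO. Grik4, a glutamate receptor gene, had 9 of 61, Trerf1 9 of 80, Cep57l1 8 of 30 and Ak4, an adenylate kinase gene, 8 of 38, none of these 4 with a lower call. Lmo7 had 8 higher and 2 lower of 58. Etl4 had 10 higher and 7 lower of 171, so its neighbourhood did not move in a single direction. Without WT replicates 3 and 4 the higher calls were 5 in St6galnac3, 5 in Cand1, 6 in Grik4, 6 in Trerf1, 7 in Cep57l1, 5 in Ak4 and 4 in Lmo7.

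Stard13 had the most lower calls, 17 of 70 with none higher, and 11 of the 17 had WT replicates 3 and 4 above replicates 1 and 2. At chr5:151069658-151069858 in Stard13 the WT values were 22.4, 14.3, 38.3 and 41 and the KO values 2.12 to 11.8. Only 5 of its intervals were lower without WT replicates 3 and 4. Cdk6, a cell-cycle kinase gene, had 14 of 54 lower and none higher, with 6 lower in the fit without these libraries. Auts2 had 12 of 134 lower and 3 higher, with 10 lower in that fit, and at chr5:131494640-131494840 its WT values of 103.6, 105.7, 115.0 and 104.6 faced KO values from 39.4 to 62.8. The Auts2 interval chr5:131614475-131614675 moved the other way, from 1.07, 3.58, 1.1 and 2.16 in WT to between 5.46 and 20.5.

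Utrn had 14 of 93 lower and 2 higher, Magi2 14 of 107 and 4, and Frmd4b 13 of 53 and none. Rere had 13 of 89 lower and 1 higher, and Macrod2 13 of 90 and 1. Erc2 had 12 of 67 lower and 3 higher, and Chd9 12 of 73 and 2. Of all intervals within 50 kb of a gene 4.5% were lower. These genes were 226 to 1998 kb long. Without WT replicates 3 and 4 the lower calls numbered 5 in Utrn, 6 in Magi2, 6 in Frmd4b, 3 in Rere, 2 in Macrod2, 5 in Erc2 and 6 in Chd9. Since these neighbourhoods were chosen for their number of calls, the counts are a description.

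**Figure D4:**
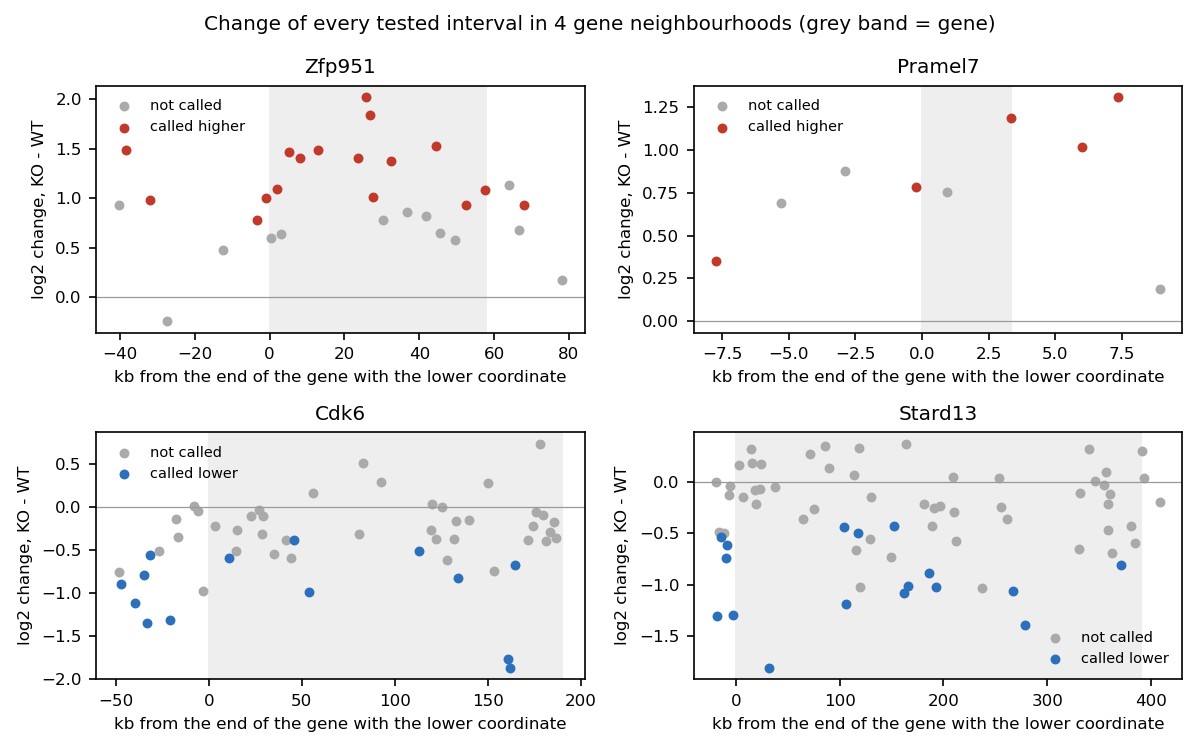
Mean centred log2 change of both KO lines against WT (y axis) at each tested interval of 4 gene neighbourhoods, by distance in kb from the end of the gene with the lower coordinate (x axis), with calls in colour and the gene as a grey band. In Zfp951 29 of 30 points lie above 0 and 17 were called higher, and in Cdk6 and Stard13 14 and 17 points were called lower.

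Seen in windows of 1 Mb, higher calls were dense in a few places. Over 1866 windows with at least 50 tested intervals, the median share called higher was 2.47% and lower 4.41%, and the 99th percentile was 8.91% and 15.3%. The window of chromosome 2 from 87 to 88 Mb had 20.5% higher, with 5 calls each at Pramel6 and Pramel7, genes of the PRAME family that is active in early embryos. Chromosome 5 from 104 to 105 Mb, which holds Zfp951 and Gm20385, had 20% higher, and chromosome 13 from 62 to 63 Mb, which holds Zfp808, had 18.8%. These shares were 11.5%, 16.2% and 18.8% without WT replicates 3 and 4. The intergenic interval chr13:62219389-62219589, 45451 bases from Zfp808 as its nearest gene, had WT values of 63, 66.3, 72.3 and 53.9. Its KO values ran from 108.2 to 149.0. The windows of chromosome 12 from 74 to 75 Mb (13.7%, with Syt16) and chromosome 13 from 66 to 67 Mb (12.7%) followed, with 11.8% and 5.45% in that fit.

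The windows richest in lower calls had fewer of them without WT replicates 3 and 4. Chromosome 14 from 28 to 29 Mb, with Erc2 and Wnt5a, had 26.9% lower with all libraries and 13.5% without these 2. Chromosome 1 from 3 to 4 Mb (Xkr4) went from 21.8% to 7.27%, chromosome 17 from 13 to 14 Mb (Tcte2) from 20.6% to 10.3%, chromosome 5 from 151 to 152 Mb (Stard13) from 20.2% to 5.95% and chromosome 13 from 5 to 6 Mb (Klf6) from 19.8% to 4.94%. At an end of Wnt5a, a secreted Wnt ligand gene, the 4 WT libraries lay close together. The values at chr14:28528379-28528579 were 167.7, 151.4, 163.2 and 161.8 in WT and 90 to 118.2 in KO, a log2 change of −0.76 and −0.73 (limma adjusted p = 1.21e-05 and 2.3e-05).

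The gene lists were read against all 233022 tested intervals within 50 kb of a nearest protein-coding gene, of which 2.79% were higher and 4.5% lower, with a median log2 difference of 0.00. Of the 70 list intervals named by rule, 27 stayed called without WT replicates 3 and 4 and 45 with DESeq2. Among 287 intervals at Nodal ligands, receptors and Smads, 9 were higher (3.14%) and 11 lower (3.83%), with a median of 0.05, and 10 of 18 genes had a call. Nodal had 2 of 11 lower. At chr10:61406037-61406237 near Nodal the WT values were 79, 69, 95.3 and 108.9, those of Smad2_KO1 44.5, 45.2, 30 and 41.6 and those of Smad2_KO2 46.1, 52.8, 44.6 and 36.2. The lowest WT library stood above the highest KO library, and the log2 change was −1.18 and −1.0 (limma adjusted p = 2.81e-06 and 3.9e-05).

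Pcsk6, which encodes the proprotein convertase PACE4 that processes Nodal, had 5 of 53 higher and 1 lower. At chr7:65845278-65845478 near Pcsk6 the values went from 43.8, 40.3, 35 and 32.4 in WT to between 54.2 and 87.5 in KO. Smad4, the partner of Smad2, had 2 of 23 lower, and Smad3, the other activin-type receptor Smad, had 1 higher and 2 lower of 41. The type I and type II receptor genes Acvr1b and Acvr2a had 1 of 16 and 1 of 12 higher. Tgfbr1 and Tgfbr2 had 1 of 11 and 1 of 18 lower. Acvr1c, Acvr2b, Inhba, Gdf3, Cfc1, Foxh1 and Tdgf1 had none. The list had 6 higher and 2 lower without WT replicates 3 and 4. Leaving out WT replicate 4 alone left 7 lower, and leaving out Smad2_KO2 replicate 2 left 5 higher.

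Lower calls outnumbered higher ones at the feedback inhibitors and corepressors of the pathway. Of 288 intervals 3 were higher (1.04%) and 32 lower (11.1%), with a median log2 difference of −0.16, and 12 of 13 genes had a call. Lefty1 had 6 of 7 lower (median −1.22) and Lefty2 4 of 8 (median −0.66). These genes encode secreted antagonists of Nodal and are textbook targets of the pathway. At an end of Lefty1, chr1:180934678-180934878, the WT values were 79, 93.2, 81 and 77.6. The values were 43.6, 39.1, 46.9 and 37 in Smad2_KO1 and 46.1, 59.2, 47.8 and 55.4 in Smad2_KO2. The groups did not overlap, and the log2 change was −1.06 and −0.72 (limma adjusted p = 1.86e-06 and 0.00055).

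A weaker interval near Lefty1, chr1:180922319-180922519, went from 25.6, 30.4, 31.8 and 22.6 in WT to between 8.09 and 16.2 in KO. In the Lefty2 gene body, chr1:180894356-180894556 went from 102.5, 109.3, 95.3 and 90.6 to between 59.8 and 80.1. At none of these 3 intervals were WT replicates 3 and 4 both above replicates 1 and 2.

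Smad7, an inhibitory Smad, had 3 of 20 lower, Ski, a corepressor of Smads, 3 of 33 and Skil, its relative, 1 of 19. At chr3:31129465-31129665 near Skil the WT values were 38.5, 42.1, 50.4 and 39.9 and the KO values 17 to 27.7. Pmepa1, which encodes a membrane protein that sequesters receptor Smads, had 4 lower and 1 higher of 40. The higher one, chr2:173294821-173295021, went from 7.48, 9.85, 6.57 and 8.63 in WT to between 16.4 and 26.7 in KO. The list's lower calls numbered 14 without WT replicates 3 and 4, 20 without either of them alone, 21 without Smad2_KO2 replicate 2, 22 with centring along the mean level and 16 with no centring.

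Mesendoderm and primitive streak genes had 8 higher (4.44%) and 18 lower (10%) of 180, with a median log2 difference of −0.06. Eomes, a T-box factor of mesendoderm, had 3 of 16 lower. At chr9:118432868-118433068 near Eomes the values were 44.9, 28.7, 57 and 51.8 in WT, 10.3, 8.22, 13.1 and 18.5 in Smad2_KO1 and 25.1, 19.1, 11.7 and 20.1 in Smad2_KO2, with log2 changes of −1.88 and −1.28. This interval was not called without WT replicates 3 and 4. Foxa2, a factor of definitive endoderm, had 3 of 11 lower, of which chr2:148053380-148053580 went from 163.4, 153.2, 129.2 and 141.3 in WT to between 68 and 115.7. Gsc, the homeobox gene goosecoid, had 2 of 20 higher and none lower. At chr12:104448218-104448418 near Gsc the WT values were 70.5, 57.3, 44.9 and 59.3 and the KO values 75 to 106.2. Without WT replicates 3 and 4 the list had 3 higher and 5 lower, and without WT replicate 4 alone 4 and 10. With no centring it had 11 each way. Leaving out any of 8 libraries, in turn, cut the higher calls to between 3 and 5.

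Pluripotency genes had calls in both directions. The naive genes had 17 higher (4.49%) and 7 lower (1.85%) of 379, with a median log2 difference of 0.03. Zfp42, the gene of the naive marker Rex1, had 5 of 35 higher and 1 lower. Esrrb, an orphan nuclear receptor, had 4 of 60 and 1, and Tfcp2l1 3 of 34 and none. At chr12:86435733-86435933 in Esrrb the values were 50.2, 42.1, 34 and 41 in WT, 86.3, 94.6, 82.5 and 90.1 in Smad2_KO1 and 76.2, 85.5, 70.1 and 100.6 in Smad2_KO2. The log2 change was 0.99 and 0.92 (limma adjusted p = 4.05e-06 and 1.49e-05), and the groups did not overlap. A near interval of Dppa3, a gene of naive cells and the germ line, rose from 24.6, 27.8, 18.6 and 20.5 to between 28.9 and 71.2. Klf2 had 1 of 14 lower and Nanog 1 of 20. The list had 9 higher and 5 lower without WT replicates 3 and 4, with 9 higher without Smad2_KO2 replicate 1 alone and 4 lower without WT replicate 4 or Smad2_KO2 replicate 2.

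The core genes had 4 higher (2.25%) and 13 lower (7.3%) of 178. Tdh, a threonine dehydrogenase gene highly active in mouse embryonic stem cells, accounted for 5 of the 13, among its 15 tested intervals. At chr14:63497158-63497358 in Tdh the WT values were 81.2, 65.4, 66.8 and 61.5 and the KO values 35.1 to 47.3. Sox2 had 2 lower and 1 higher of 35. At chr3:34653953-34654153 the 4 WT values of 198.7, 189.0, 187.3 and 190.9 stood above KO values of 126.3 to 166.8. Utf1 had 1 of 5 lower, from 40.6, 37.6, 46 and 39.9 in WT to between 15.4 and 28.1, and this interval was not called without WT replicates 3 and 4. The list had 9 lower calls without WT replicates 3 and 4. Its higher calls ranged from 0 to 7 over the fits without 1 library each.

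The formative and primed genes had 4 higher (1.56%) and 19 lower (7.39%) of 257. Pou3f1, the gene of the POU factor Oct6 that marks primed cells, had 6 of 21 lower (median −0.36). At chr4:124646713-124646913 near Pou3f1 the values were 224.3, 233.8, 301.2 and 291.2 in WT, 132.5, 127.5, 141.5 and 159.4 in Smad2_KO1 and 155.3, 144.7, 147.7 and 122.8 in Smad2_KO2. The lowest WT library was above the highest KO library, with log2 changes of −0.97 and −0.93 (standard error 0.11, limma adjusted p = 1.07e-07 and 2.86e-07). Sall2, a zinc finger factor, had 3 of 9 lower, of which the start interval chr14:52327610-52327810 went from 127.1, 132.6, 130.3 and 106.8 in WT to between 72.2 and 92.5. Fgf5 had 2 of 7 lower, Dnmt3b 2 of 19 and Lef1 2 of 46. Otx2, shared with the mesendoderm list, had 2 higher and 1 lower of 27. Its interval chr14:48608816-48609016 had every KO value, from 43.2 to 62.4, above the WT values of 29.9, 35.8, 24.1 and 29.1. That Otx2 interval was not called without WT replicates 3 and 4. The list had 3 higher and 11 lower without WT replicates 3 and 4.

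Among signalling genes, LIF, FGF and ERK had 3 higher (0.769%) and 25 lower (6.41%) of 390, and 14 lower without WT replicates 3 and 4. Fgfr2, an FGF receptor gene, had 7 of 42 lower. At chr7:130309326-130309526 near Fgfr2 the WT values of 24.6, 23.3, 44.9 and 66.9 faced KO values from 4.25 to 10.3. Socs3, a feedback inhibitor of the LIF pathway, had 3 of 16 lower and Spred1, an inhibitor of ERK signalling, 3 of 20. Dusp6 had 2 of 15 lower and Dusp4 1 of 13. The Dusp4 interval, chr8:34776078-34776278, went from 26.7, 37.6, 30.7 and 32.4 in WT to between 7.2 and 19.6 in KO.

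Wnt signalling and targets had 8 higher (1.65%) and 25 lower (5.17%) of 484, with 16 lower without Smad2_KO1 replicate 1. Sp5, a transcription factor and Wnt target, had 3 of 7 lower, of which the end interval chr2:70477658-70477858 went from 33.1, 33.1, 38.3 and 41 in WT to between 13.1 and 21.2. BMP signalling and Id genes had 9 higher (3.18%) and 15 lower (5.3%) of 283, with 5, 6, 9 and 7 lower without WT replicate 4, Smad2_KO1 replicate 1, Smad2_KO2 replicate 2 and Smad2_KO2 replicate 3. PPAR and lipid metabolism genes had 14 each way (2.81%) of 498, with 9 higher without WT replicate 4 and 8 without Smad2_KO1 replicate 1, and mTOR pathway, lysosome and autophagy genes 9 higher (2.45%) and 17 lower (4.63%) of 367. DNA methylation genes had 6 and 5 of 227, retinoic acid genes 5 and 9 of 169, and primitive endoderm genes 8 and 7 of 250. None of these last 6 lists, from BMP signalling on, had over 5.33% of its intervals called in either direction, and most of their counts of 9 or fewer moved by over 1.5 times without single libraries. Without WT replicates 3 and 4 Wnt signalling had 3 higher and 10 lower, and BMP signalling 6 and 2. In that fit PPAR genes had 5 and 5, mTOR genes 8 and 6 and DNA methylation genes 6 and 2. Retinoic acid genes had 3 and 3 and primitive endoderm genes 9 and 2.

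Neural and developmental factors had 7 higher (2.31%) and 27 lower (8.91%) of 303, with a median of −0.13. Pax3 had 5 of 21 lower, Meis1 4 of 33 and Pax2 3 of 34. At chr11:18927406-18927606 in Meis1, a homeobox gene, WT values of 38.5, 22.4, 64.6 and 61.5 faced KO values from 7.44 to 20.6. Without WT replicate 4 the list had 14 lower and without WT replicates 3 and 4 it had 9. Lhx2 moved the other way, from 24.6, 25.1, 20.8 and 9.71 in WT to between 38.1 and 52.8 in KO at chr2:38412715-38412915. Imprinted genes had 12 higher (3.63%) and 19 lower (5.74%) of 331, with 7 higher without Smad2_KO1 replicate 1 or replicate 3. Trophoblast genes had 4 and 10 of 221, with 6 lower without WT replicate 4, fibroblast genes 3 and 10 of 157, and two-cell-like genes 1 and 0 of 39. Without WT replicates 3 and 4 imprinted genes had 12 higher and 11 lower, trophoblast genes 5 and 3 and fibroblast genes 4 and 2.

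**Figure D5:**
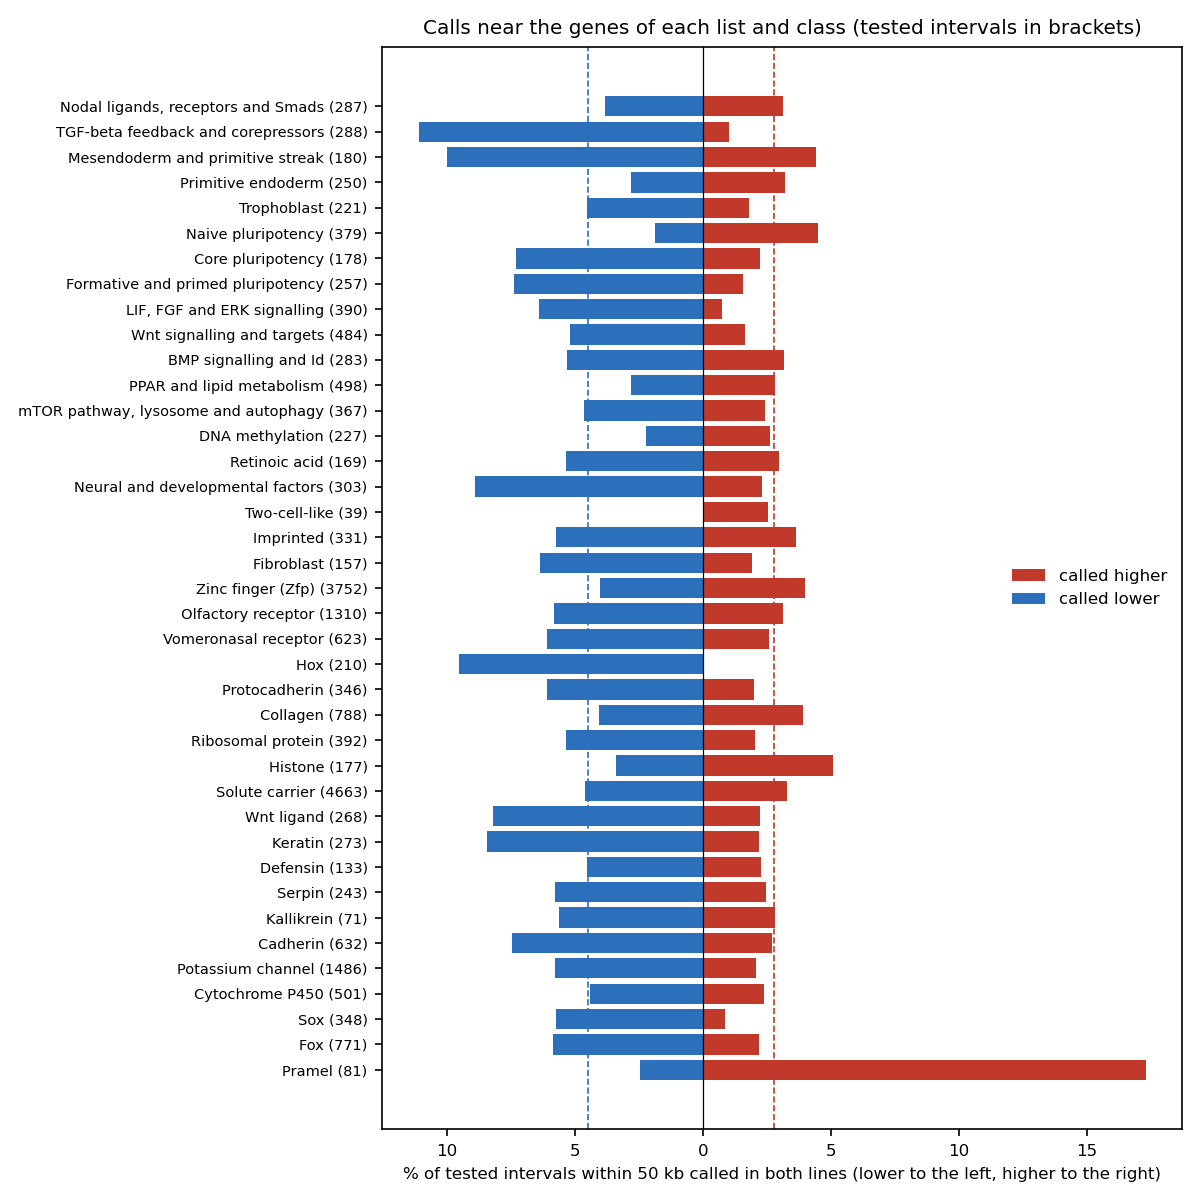
Percent of a list's or class's tested intervals called higher (to the right) and lower (to the left) in both KO lines (x axis) for the gene lists and gene classes (y axis), with dashed lines for all intervals within 50 kb of a gene (2.79% higher, 4.5% lower). Lower calls reach 11.1% for TGF-beta feedback genes and 9.52% for Hox genes, and higher calls reach 17.3% for Pramel genes.

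Gene classes set by symbol showed 2 extremes. None of the 210 intervals at Hox genes was higher and 20 were lower (9.52%), with a median log2 difference of −0.24, and 14 of 37 genes had a call. Hoxc9 had 3 of 6 lower. At an end of Hoxb6, chr11:96291726-96291926, the 4 WT values were 36.3, 35.8, 42.7 and 35.6 and the KO values 13.4 to 27.3, a log2 change of −0.99 and −0.86. Near Hoxd1, chr2:74760197-74760397 went from 20.3, 18.8, 36.1 and 30.2 to between 6.04 and 15. None of the following fits gave a higher call at Hox genes, with 17 lower under centring along the mean level, 12 with no centring, 13 without WT replicate 4 or Smad2_KO1 replicate 2, and 8 without WT replicates 3 and 4.

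Pramel genes showed the reverse, with 14 higher (17.3%) and 2 lower (2.47%) of 81 and a median of 0.28, but only 6 of 26 genes had a call. Most of the higher calls fell on Pramel6 (5 of 6) and Pramel7 (5 of 9), both in the chromosome 2 window named above. The others were at Pramel17 (2 of 3) and further members, and Pramel13 had 2 of 5 lower. The share is thus largely that of a single locus. Near Pramel17, chr4:101825122-101825322 went from 31, 43, 30.7 and 47.5 in WT to 82.9, 84.3, 61.9 and 68.2 in Smad2_KO1 and 85.2, 93.7, 78.6 and 81.5 in Smad2_KO2. Its log2 changes were 0.88 and 1.10 (limma adjusted p = 7.79e-05 and 2.33e-06). At an end of Pramel6, chr2:87510489-87510689, the WT values were 9.61, 8.06, 4.38 and 7.55 and the KO values 13.1 to 27.1. The class had 8 higher without WT replicates 3 and 4, 9 without WT replicate 2 and 7 without Smad2_KO2 replicate 1. These genes are close copies of each other, so reads may be shared between them.

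Zinc finger (Zfp) genes had 150 calls each way (4%) of 3752, and 107 higher and 46 lower without WT replicates 3 and 4. It had 90 lower without WT replicate 4 alone and 99 higher without Smad2_KO2 replicate 2. At single members they moved in opposite directions. Zfp516 had 7 higher and 1 lower of 59, and Zfp704 6 and 1 of 89. Zfp423 had 9 of 99 lower and Zfp608 9 of 29, with none higher. Near Zfp322a, chr13:23321549-23321749 went from 31, 26.9, 31.8 and 23.7 in WT to between 5.03 and 14.4. Wnt ligand genes had 6 higher (2.24%) and 22 lower (8.21%) of 268, keratin genes 6 and 23 (8.42%) of 273 and cadherin genes 17 and 47 (7.44%) of 632. Without WT replicates 3 and 4 the lower calls were 8 for Wnt ligands, 8 for keratins and 13 for cadherins, and without WT replicate 4 alone 13, 12 and 31. In Cdh15, the gene of muscle cadherin, the body interval chr8:122864782-122864982 rose from 20.3, 10.8, 9.86 and 6.47 in WT to between 29.9 and 52.5 in KO. Near Wnt11, chr7:98856181-98856381 fell from 70.5, 62.7, 111.7 and 103.5 to between 26.1 and 54.3. Sox genes had 3 higher (0.862%) and 20 lower (5.75%) of 348, with 12 lower without WT replicate 4 or Smad2_KO2 replicate 2. Without WT replicates 3 and 4 they had 2 higher and 9 lower.

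The same lines treated with INK128 formed a separate table with its own WT libraries, normalized separately. In it 15454 of 260539 tested intervals were higher in both lines (5.93%) and 22326 lower (8.57%). Of the 10 largest rises without inhibitor, all 10 overlapped an interval of that table by at least 50% and all 10 were called higher there. Of the 10 largest falls 9 were matched and 9 called lower, as were 7 of 7 matched rises and 5 of 5 matched falls at gene ends. Of the 70 intervals named from the gene lists, 51 were matched, 50 had the same sign and 37 were called. Zfp951 had 13 of 27 intervals higher there. The cells are from the same lines, so this is no independent test of the knockout.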

How the data were processed

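ATAC-seq was run on 24 libraries of mouse embryonic stem cells, of which the 12 grown without inhibitor were analysed here. Per the submitters' processing notes, reads were handled with FastQC, Trim Galore, Bowtie2 2.4.1, MACS3 3.0.3 and DiffBind 3.16.0 on mm10. The handling of duplicates, multi-mapping reads and the Tn5 offset is not given in the sources used here. The authors deposited 1 table for these libraries, holding a normalized signal per interval and library, and, per the file headers, log2 means and log2 fold changes, p-values and q-values (false discovery rates). The signal is whole reads divided by 1 factor per library: 100.00% of values fell on such a ladder within 0.0051. Reads recovered within the intervals were 11.8 to 16.5 M a library.

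Intervals with a value of 10 or more in at least 4 libraries were kept. log2(value + 1) was centred per library on its median log2 ratio to the mean of the 12, and fitted with limma 3.58.1 (lmFit, eBayes with trend, R 4.3.3), with Benjamini-Hochberg adjustment over all tested intervals. Changes are differences of log2(value + 1), and so are too small at low intervals. On recovered reads, edgeR 4.0.16 called 21977 intervals in both lines and DESeq2 1.42.0 called 11450. Tables were made with Python 3.11.15, numpy 2.4.6, pandas 2.3.3, scipy 1.17.1 and matplotlib 3.10.9. Tested on simulated data with 100 intervals changed by each size, limma recovered 47% of changes of 1 and 99% of changes of 2 on the log2 scale, and called 1 of 281889 unchanged intervals. The simulation gave all intervals and libraries the same dispersion and held no split among the WT libraries. Its changed intervals were drawn from those with higher means. These rates therefore need not hold for the real libraries.

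Positions and nearest genes came from RefSeq GRCm38.p6 (21887 protein-coding genes with a position, 17492 with a strand). Named were every tested interval in or within 1000 bases of Smad2, the 10 largest changes each way among calls without overlap of KO and WT and with a higher group mean of at least 50, the 8 largest each way at gene ends with a mean of at least 20, the 10 genes with most calls each way, the 5 windows with the highest share each way, and in each of 19 lists the called intervals with the largest change in up to 4 genes. The members, the lists and the 20 classes set by symbol were chosen with earlier results of these data known. Other example intervals, the promoters shown and the interferon response motif were chosen after their values or sequences were seen. The table of INK128-treated libraries was fitted in the same way, and was used to match intervals and to count their calls.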

Additional observations from a re-analysis of the deposited data

Results flagged for a closer look

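Of 333 groups of 4 libraries searched for a value far from the other 3, 11 had one, where chance gives about 1 in 20, or 16.6. In Smad2_KO2, replicate 3 was low in a Smad2 body interval (11.7 against 15.5 to 16.1) and at Tube1 (42.5 against 59.1 to 61), where all KO values still exceeded WT. Replicate 4 of Smad2_KO2 was high at Xlr3a (94.6 against 84.2 to 85) and at Lrp5 (17.1 against 6.37 to 8.19), and replicate 1 at Col4a2 (28.1 against 11.7 to 14.1). In Smad2_KO1, replicate 4 was low at Fgfr2 (9.24 against 10.3), Aldh1a2 (39.3 against 53.9 to 55.5) and Col1a2 (3.47 against 7.2 to 7.69), and replicate 2 was high at Lgr5 (20.6 against 15.4 to 16.2). WT replicate 1 was low at the gene end of Slc22a16 (8.54 against 24.8 to 26.3). The share of signal at gene ends was low in Smad2_KO1 replicate 2 (20.9% against 23% to 23.4%).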

How the results depend on the processing

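The 21231 intervals called in both lines became 11450 with DESeq2, 50203 with the 8 KO libraries as 1 group, 35846 with KO libraries of 1 number averaged, 10098 without WT replicates 3 and 4 and 4129 with an absolute log2 change of at least 1, and ranged from 15047 to 22095 without 1 library each. Smad2_KO1 alone gave 17533, 17125 and 7151 with DESeq2, without WT replicates 3 and 4 and at a log2 change of at least 1 (21841 to 33082 without 1 library each, lowest without Smad2_KO1 replicate 1), and Smad2_KO2 alone 16463, 15250 and 6842 (21481 to 31779). The share of calls that were higher, 37.3%, was 55.2% with no centring, 58.1% with library totals, 39.4% with TMM factors, 43.9% with loess centring, 36.1% with no filter, 33.3% with edgeR, 22.7% with DESeq2, 44.5% with the KO libraries as 1 group, 38.1% averaged, 51.5% without WT replicates 3 and 4, 34.6% without WT replicates 1 and 2, 34.1% at a log2 change of at least 1, and 33.5% to 41.7% without 1 library each. The cause of these shifts was not tested. The majority of lower calls thus turned to a majority of higher calls with no centring, with library totals and without WT replicates 3 and 4. Smad2_KO2 against Smad2_KO1 gave 0 calls in each fit that kept the lines apart. To look for pairing, the mean of its line was subtracted from each library at every interval, and these deviations were correlated. The correlations are therefore not those of the libraries' signal. Between libraries of different lines they were weak. They averaged 0.0267 for the same replicate number (−0.00568 to 0.109) and −0.00888 for different numbers (−0.102 to 0.0838). Of the 12 libraries, 6 correlated best with a library of their own number. Whether the numbers pair the libraries was not tested further. With the replicate block 23582 intervals were called in both lines, 36886 in Smad2_KO1 and 34499 in Smad2_KO2. How depth limits the calls was not tested.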

Other observations

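Calls were uneven between chromosomes. On the X chromosome 1.44% of 6396 tested intervals were higher in both KO lines and 5.89% lower, on chromosome 19 2.14% and 5.35% of 7626, and on chromosome 6 3.72% and 4.02% of 15630. No test of these shares was run.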
